A study of Mus musculus with 46 samples.

Results

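The genes described here are 42 genes of glucose breakdown and of the cellular response to low oxygen, out of 56980 genes in the hSS2 count table and 56941 in the hSS1 table. They were chosen by name from known roles: the HIF transcription factors and their oxygen sensors, the enzymes and transporters that turn glucose into lactate, and widely used targets of HIF. All 42 were found in both tables and passed the low-count filter in every comparison. RNA sequencing had been run on 46 mouse tumors, 1 library each, from models of synovial sarcoma, a soft-tissue cancer driven by a fusion of SS18 to an SSX gene. Every mouse carried a human fusion, SS18::SSX2 in the hSS2 background and SS18::SSX1 in the hSS1 background. Per the study's methods, the fusion was switched on by TATCre, a cell-permeable Cre protein injected into the limb of 8 day old mice. In hSS2 there were 13 control tumors and 8 tumors each with Pbrm1-fl, Arid1a-fl or Arid1b-fl, and in hSS1 there were 5 control tumors and 4 with Pbrm1-fl, where fl marks a floxed gene that the same Cre disrupts by removing 1 exon. The Cre was not restricted to a cell type. Tumors of males and females were taken whole when the mice became ill, and the mice were of mixed strain and 2 to 6 months old.

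Cells kept in normal oxygen hydroxylate the HIF alpha subunits through the EGLN enzymes, and the hydroxylated subunits are destroyed. When oxygen falls, HIF1A and EPAS1 (also called HIF2A) persist, bind DNA at the core letters ACGTG or GCGTG, and raise transcription of glucose transporters, glycolytic enzymes, angiogenic factors and regulators of mitochondria. PBRM1 is the defining subunit of the PBAF chromatin remodeling complex, while a canonical BAF complex holds either ARID1A or ARID1B. Loss of PBRM1 is known from kidney cancer, where HIF is constitutively active, as a modifier of HIF target output. The comparisons asked how the level of these genes differed when each subunit was disrupted on top of the fusion.

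The 46 libraries held between 10137668 and 21294657 reads assigned to genes. Pbrm1 was at 95.0 to 139 CPM (read counts scaled to library size and composition) in the hSS2 Pbrm1-fl tumors and at 171 to 316 CPM in their controls, with no overlap. In hSS1 the Pbrm1-fl tumors were at 102, 209, 226 and 252 CPM against 275 to 373 CPM in controls, so a large share of Pbrm1 reads remained in 3 of the 4. Arid1a was at 229 to 276 CPM in the Arid1a-fl tumors, and the library labelled hSS2 control replicate 9 was in that range at 238 CPM. Arid1b overlapped between Arid1b-fl (111 to 347 CPM) and control (222 to 686 CPM) tumors, and these counts cover the whole gene, including exons that a floxed allele keeps. The mouse numbers on the labels fell into ranges that coincided with the floxed gene, so each comparison was repeated against controls of the same range only. The hSS2 tumors also differed widely in skeletal muscle markers, and in bulk tissue fewer cells of a type and less RNA per cell cannot be told apart.

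Promoter sequence of the members that the results below turn on is shown first, since the HIF core letters are what most of the group is known to share. Of the 42 genes, 37 had a promoter in the RefSeq table of build GRCm38.p6, in 52 windows of 250 bases ending just before a transcription start. ACGTG or GCGTG, on either strand, occurred in 42 of the 52 windows (80.8%), and in 38.6% of the 32851 windows of all genes. A CACGTG run holds ACGTG on both strands and was counted at both starts. The match says only that the letters are present. Car9, Pgk1, Slc2a1 and Egln3 are shown because they varied together across tumors, and Hk1 and P4ha2 because a comparison called them. Each sequence runs 5′ to 3′ on the strand of the gene, and capitals mark ACGTG or GCGTG or their reverse complements.
Car9 promoter, GRCm38.p6 chr4:43506776-43507025, plus strand: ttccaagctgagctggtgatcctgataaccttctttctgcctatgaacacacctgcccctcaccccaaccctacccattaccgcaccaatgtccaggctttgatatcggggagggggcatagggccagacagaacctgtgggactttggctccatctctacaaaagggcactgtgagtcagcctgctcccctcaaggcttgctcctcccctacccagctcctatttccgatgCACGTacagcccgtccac
Pgk1 promoter, GRCm38.p6 chrX:106186850-106187099, plus strand: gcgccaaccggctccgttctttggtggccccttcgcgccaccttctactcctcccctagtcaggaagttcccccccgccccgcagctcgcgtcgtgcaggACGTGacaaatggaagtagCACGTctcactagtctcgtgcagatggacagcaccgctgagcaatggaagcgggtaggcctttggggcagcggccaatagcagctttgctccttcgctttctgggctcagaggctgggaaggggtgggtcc
Slc2a1 promoter, GRCm38.p6 chr4:119108495-119108744, plus strand: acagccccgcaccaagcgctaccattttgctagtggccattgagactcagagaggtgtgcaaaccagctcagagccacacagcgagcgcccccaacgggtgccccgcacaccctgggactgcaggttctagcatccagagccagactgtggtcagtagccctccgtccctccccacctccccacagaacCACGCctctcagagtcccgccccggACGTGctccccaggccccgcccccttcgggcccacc
Egln3 promoter, GRCm38.p6 chr12:54203875-54204124, minus strand: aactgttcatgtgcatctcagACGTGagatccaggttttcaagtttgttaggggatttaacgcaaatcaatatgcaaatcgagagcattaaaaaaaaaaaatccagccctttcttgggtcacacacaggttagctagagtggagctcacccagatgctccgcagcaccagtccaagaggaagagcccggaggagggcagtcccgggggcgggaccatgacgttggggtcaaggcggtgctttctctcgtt
P4ha2 promoter, GRCm38.p6 chr11:54100674-54100923, plus strand: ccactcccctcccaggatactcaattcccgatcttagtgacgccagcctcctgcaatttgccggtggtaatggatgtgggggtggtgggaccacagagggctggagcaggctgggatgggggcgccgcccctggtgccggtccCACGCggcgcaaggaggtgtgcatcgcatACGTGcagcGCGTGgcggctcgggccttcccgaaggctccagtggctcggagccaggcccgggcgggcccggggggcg
Hk1 promoter, GRCm38.p6 chr10:62340422-62340671, minus strand: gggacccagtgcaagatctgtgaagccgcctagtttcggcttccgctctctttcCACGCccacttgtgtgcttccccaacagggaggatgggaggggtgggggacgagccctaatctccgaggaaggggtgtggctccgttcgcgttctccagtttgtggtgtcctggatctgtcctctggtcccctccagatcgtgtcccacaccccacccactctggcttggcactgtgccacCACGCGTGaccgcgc
Hk1 has a second window, farther upstream, with none of these letters.

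Per length of exon, the lower glycolytic enzymes were the most abundant members. RPKM here is CPM divided by the merged length in kilobases of all annotated exons of a gene, which can exceed that of a single transcript. In the hSS2 control tumors the median was 272 RPKM for Aldoa, 218 for Gapdh and 149 for Pkm. These encode an aldolase, the glyceraldehyde phosphate dehydrogenase and the main pyruvate kinase. Ldha, the lactate dehydrogenase subunit induced by HIF, had a median of 63.6 RPKM and Ldhb one of 53.1 RPKM. The HIF subunits were lower, at 19.3 RPKM for Hif1a and 16.1 RPKM for Epas1. Car9, the surface carbonic anhydrase used as a clinical marker of hypoxia, was among the least abundant members at 1.22 RPKM, and its lowest library had 4 reads. Gapdh, Pgk1, Ldha, Aldoa, Eno1, Pkm, Tpi1 and Pgam1 have many processed pseudogenes, so their absolute levels are uncertain.

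The members differed greatly in how steady they were between control tumors. Hk1, the hexokinase of most resting tissues, spanned 107 to 189 CPM over the 13 hSS2 controls, a ratio of 1.76 between highest and lowest. Hk2, the hexokinase that HIF and muscle both use, spanned 3.92 to 128 CPM, a ratio of 32.8. Lox, which crosslinks collagen, spanned a ratio of 85.0. The median standard deviation of log2 CPM over these controls was 0.55 for the members and 0.48 for all genes tested.

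Few of the 42 genes passed the test in any comparison. The share of members called (edgeR, adjusted p under 0.05 over all genes tested) was 1 of 42 for Pbrm1-fl in hSS2, where 7.35% of all genes were called and 3.4% were called higher. It was 3 of 42 for Arid1a-fl, where 3.17% of all genes were called and 1.41% were called higher. For Arid1b-fl it was 0 of 42 beside 0.0548% of all genes, and for Pbrm1-fl in hSS1 it was 0 of 42 beside 0.00562%. At an unadjusted p under 0.05 there were 8 members for Pbrm1-fl in hSS2 (19%, beside 22.4% of all genes), 10 for Arid1a-fl (23.8% beside 23.0%), 4 for Arid1b-fl (9.52% beside 6.22%) and 8 for Pbrm1-fl in hSS1 (19% beside 17.2%). The median log2 fold change of the members was 0.06, 0.06, 0.33 and -0.13 in the same order, and that of all genes tested lay between -0.04 and 0.01. Among the muscle-poor hSS2 tumors described below, the members' median was 0.41 for Pbrm1-fl, 0.43 for Arid1a-fl and 0.38 for Arid1b-fl. There 33, 33 and 35 of 42 were above 0, in place of 23, 22 and 32 over all tumors. No member was called there, beside 1050, 0 and 0 of 19976 genes. This setting was chosen after the data were seen. The medians over all genes given above belong to the fit of all tumors, so they are no reference for the muscle-poor values. The 3 hSS2 comparisons share their control tumors, of which 5 are muscle-poor. In the text that follows, called means called by edgeR in the fit of all tumors unless another tool or setting is named.

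**Figure D1:**
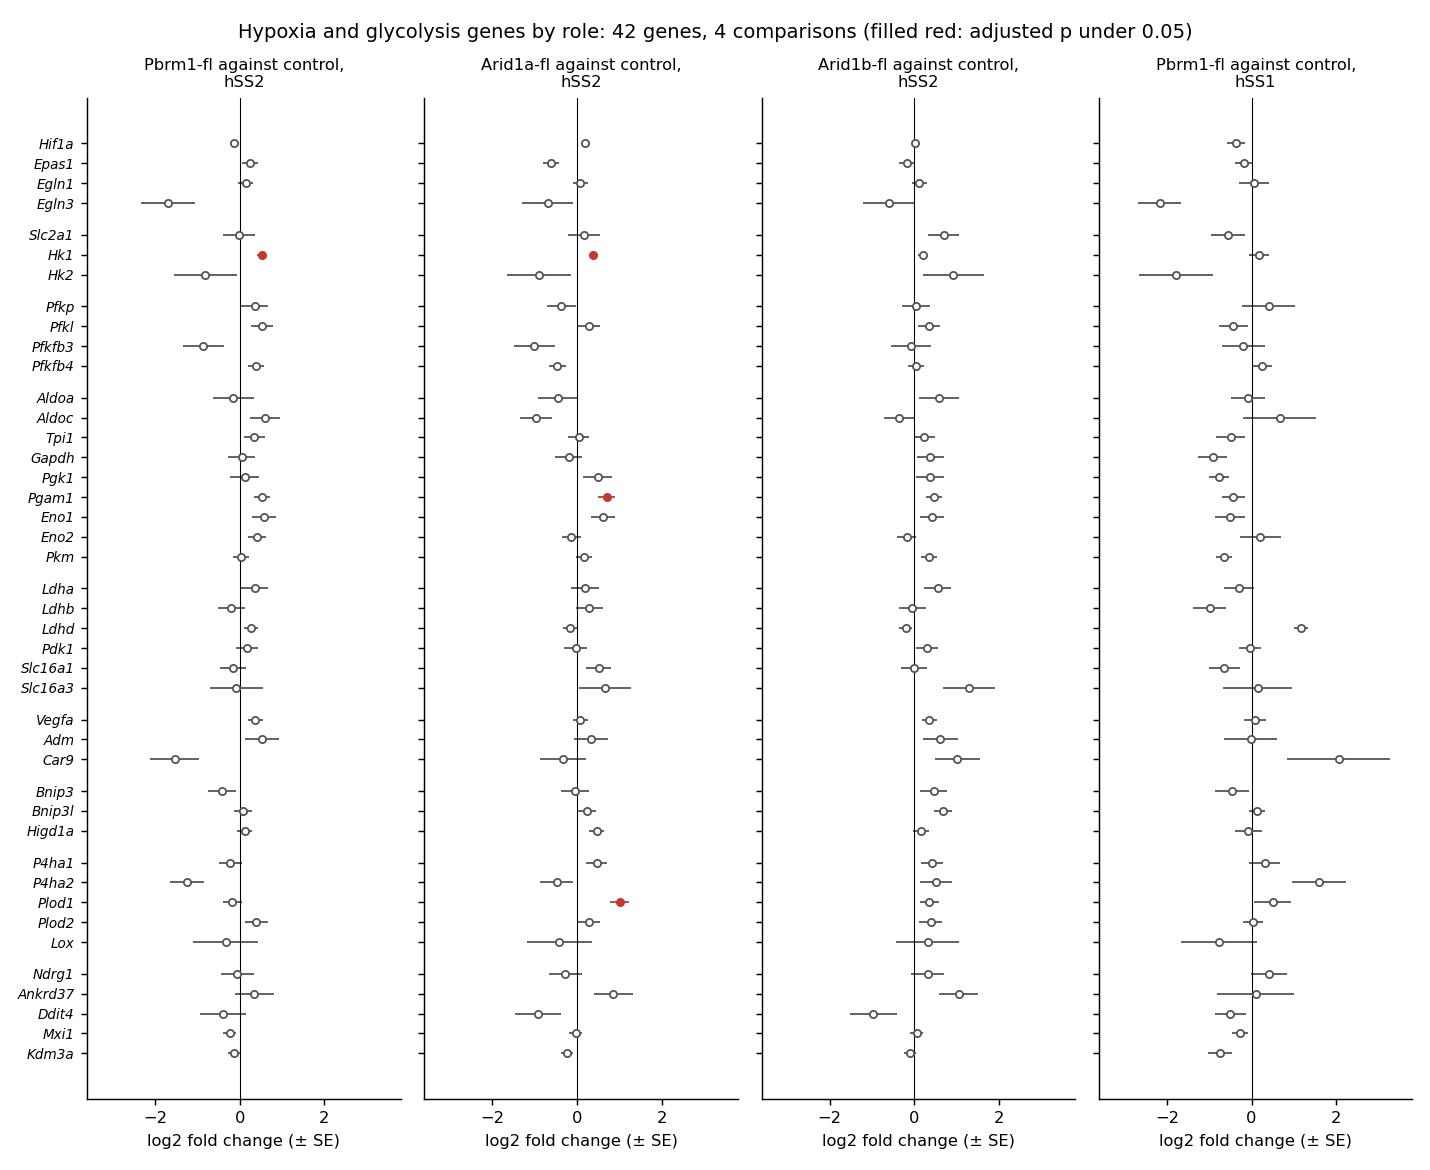
Log2 fold change of each of the 42 members, floxed minus control, with its standard error as a bar, grouped by role from top to bottom and with 1 panel per comparison. Filled red points are the 4 values with an adjusted p under 0.05, which are Hk1 for Pbrm1-fl in hSS2 and Hk1, Pgam1 and Plod1 for Arid1a-fl, and the widest bars belong to Car9, Lox and Ankrd37, with standard errors up to 1.22.

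Among the HIF subunits and oxygen sensors, none of the 4 genes was called by edgeR in any of the 4 comparisons with controls. Hif1a had medians between 105 and 146 CPM in all 6 groups, and it spanned a ratio of 2.18 between highest and lowest over the hSS2 controls. Epas1 had a lowest, median and highest value of 59.1, 89.8 and 114 CPM in hSS2 controls, of 60.1, 120 and 154 CPM in Pbrm1-fl, of 30.3, 56.5 and 89.5 CPM in Arid1a-fl and of 52.2, 71.2 and 115 CPM in Arid1b-fl tumors. All 8 Arid1a-fl tumors were below the control median, 4 of them below every control, and the log2 fold change was -0.60 ± 0.19 (SE; edgeR adjusted p 0.0633, not called; DESeq2 adjusted p 0.0335). Epas1 also had the highest positive r of the members with endothelial markers over all hSS2 tumors, as given below.

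Egln3, the HIF prolyl hydroxylase that is itself strongly induced by HIF, was low in the Pbrm1-fl tumors of both backgrounds without passing the test in either. In hSS2 its lowest, median and highest values were 8.65, 19.7 and 169 CPM in controls and 1.36, 8.0 and 31.1 CPM in Pbrm1-fl tumors, with 7 of 8 floxed tumors below the control median. The log2 fold change was -1.69 ± 0.63 (edgeR adjusted p 0.0982). In hSS1 the controls were at 22.2, 44.2, 52.1, 18.8 and 85.1 CPM and the Pbrm1-fl tumors at 14.2, 12, 8.36 and 5.03 CPM. These groups did not overlap, and the log2 fold change was -2.17 ± 0.51 (edgeR adjusted p 0.122). The hSS1 and hSS2 tumors are separate animals with separate controls. DESeq2, the alternative count model, called Egln3 in both (adjusted p 0.0365 in hSS2 and 0.00135 in hSS1). It called 2282 of 25980 genes for Pbrm1-fl in hSS2 and 1244 of 19851 in hSS1. Egln1, the main oxygen sensor, had medians of 60.3 CPM in hSS2 controls and 74.6 CPM in hSS2 Pbrm1-fl tumors, with overlapping ranges.

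Hk1 was the only member called for Pbrm1-fl in hSS2, and it was also called for Arid1a-fl. Its lowest, median and highest values were 107, 139 and 189 CPM in controls, 171, 200 and 257 CPM in Pbrm1-fl and 171, 180 and 223 CPM in Arid1a-fl tumors. All 8 tumors of each floxed group were above the control median, and 6 of the Pbrm1-fl and 3 of the Arid1a-fl tumors were above every control. The log2 fold change was 0.52 ± 0.10 for Pbrm1-fl (edgeR adjusted p 0.0018) and 0.38 ± 0.10 for Arid1a-fl (edgeR adjusted p 0.0413). Against controls of the same mouse number range it was 0.36 (adjusted p 0.146) for Pbrm1-fl and 0.65 (adjusted p 0.00382) for Arid1a-fl, so the Pbrm1-fl call was lost within the range. The Arid1a-fl call was near the threshold, and it was lost in 11 of 21 fits that each left out 1 tumor (0.35 to 0.42, edgeR adjusted p 0.0268 to 0.105). Control replicate 9, with Arid1a in the Arid1a-fl range, was among these tumors, and without it only Plod1 was called for Arid1a-fl. In hSS1 the log2 fold change of Hk1 was 0.18, with the 4 floxed tumors at 96.7 to 161 CPM and the controls at 69.5 to 139 CPM.

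The other genes of glucose entry were not called. Slc2a1, which encodes the glucose transporter GLUT1, had medians between 20.2 and 26.7 CPM in the 4 hSS2 groups. Its highest hSS2 value was 197 CPM, in Arid1b-fl replicate 5, beside 9.52 to 29.8 CPM in the other 7 tumors of that group. Hk2 had medians of 19.9 CPM in hSS2 controls and 16.1, 14 and 24.5 CPM in Pbrm1-fl, Arid1a-fl and Arid1b-fl tumors, and every group spanned a ratio far larger than the gaps between these medians. Of the phosphofructokinases, which set the committed step of glycolysis, and the PFKFB enzymes that activate them, none was called against controls.

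**Figure D2:**
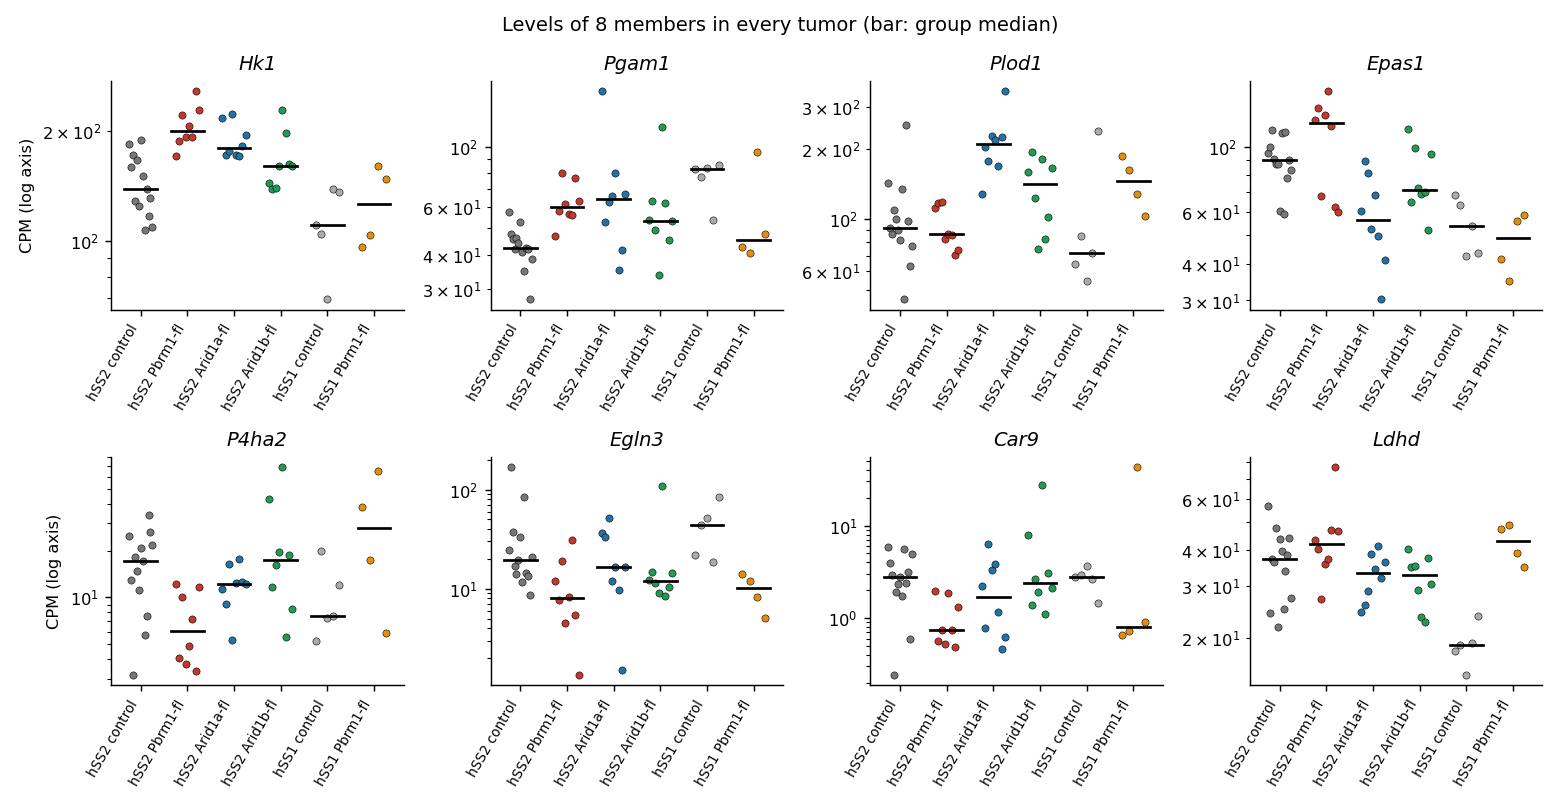
Level of 8 members in each tumor in CPM on a log axis, with 1 point per tumor, the 6 groups along the horizontal axis and a bar at each group's median. Hk1 is higher in hSS2 Pbrm1-fl and Arid1a-fl tumors than in most controls, Plod1 is higher in Arid1a-fl tumors, Ldhd does not overlap between the hSS1 groups, and Car9 has single high points in hSS2 Arid1b-fl and hSS1 Pbrm1-fl.

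Of the 9 lower glycolytic enzymes, 8 had a positive log2 fold change for Pbrm1-fl in hSS2, with a median of 0.35, but none was called. Against the same controls, 7 of the 9 were positive for Arid1b-fl (median 0.36) and 5 for Arid1a-fl (median 0.04). For Pbrm1-fl, Pgam1, a phosphoglycerate mutase, came closest to a call. Its lowest, median and highest values were 27.4, 42.4 and 57.3 CPM in controls and 46.8, 59.9 and 80.0 CPM in Pbrm1-fl tumors, with 5 of the 8 above every control (log2 fold change 0.53 ± 0.20, edgeR adjusted p 0.0948). For Arid1a-fl, Pgam1 was called at 0.70 ± 0.20 (edgeR adjusted p 0.0444). The Arid1a-fl tumors were at 35.1, 64.0 and 160 CPM in the same order, so their lowest tumor was within the control range. The call was lost in 12 of 21 fits that each left out 1 tumor, among them the fit without control replicate 9. The highest tumor was Arid1a-fl replicate 1, and without it the log2 fold change was 0.42 (edgeR adjusted p 0.185). The same tumor had the highest Arid1a-fl values of Pgk1 (480 CPM, beside 50.4 to 290 CPM in the other 7) and Eno1 (787 CPM, beside 131 to 446 CPM).

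In hSS1 the same enzymes pointed the other way, again without a call by edgeR. Of the 9, 7 had a negative log2 fold change for Pbrm1-fl, with a median of -0.50. Pkm was at 1193, 1289, 1090, 865 and 1055 CPM in the controls and at 544, 599, 910 and 745 CPM in the Pbrm1-fl tumors, with 3 of the 4 below every control (log2 fold change -0.65 ± 0.19, edgeR adjusted p 0.164, DESeq2 adjusted p 0.0381). Gapdh was below every control in the same 3 tumors, at -0.92 ± 0.34 (edgeR adjusted p 0.23, not called). Proliferation markers moved in the same direction in these tumors, with a median log2 fold change of -0.81 over 12 genes, 7 of them at an unadjusted p under 0.05 and none called. Erythroid markers had a median of -2.36 over 6 genes and skeletal muscle markers one of -2.41 over the 7 tested, and the part of these lists in the enzyme values was not tested.

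Ldhd, the mitochondrial D-lactate dehydrogenase, gave the smallest p of any member in hSS1. The controls were at 18.1, 18.9, 14.9, 19.2 and 23.7 CPM and the Pbrm1-fl tumors at 47.1, 48.9, 39.1 and 35.1 CPM. The groups did not overlap, and the log2 fold change was 1.16 ± 0.17 (edgeR adjusted p 0.0958, not called; DESeq2 adjusted p 3.73e-07). Only 1 gene of 17786 was called by edgeR in this comparison, and 1244 of 19851 by DESeq2. Ldhd and Egln3 were the 2 members without overlap between the hSS1 groups, 1 in each direction, where 3.28% of all genes were higher and 3.54% lower without overlap. In hSS2 the Ldhd medians were 37.2 CPM in controls and 41.8 CPM in Pbrm1-fl tumors, and the difference between backgrounds in the Pbrm1-fl effect was 0.89 (edgeR adjusted p 0.0677).

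Ldha had medians of 211, 307, 231 and 285 CPM in hSS2 control, Pbrm1-fl, Arid1a-fl and Arid1b-fl tumors, with wide overlap. Ldha, Ldhb, Pdk1, Slc16a1 and Slc16a3, which set whether pyruvate becomes lactate and whether lactate leaves the cell, were called in no comparison. Ratios of paired isozymes within a tumor were compared by a two-sided exact permutation test over 6 ratios and 4 comparisons. The ratio of Ldha to Ldhb had a mean log2 of 1.41 ± 1.07 (SD, n = 13) in hSS2 controls and 2.38 ± 1.53 (SD, n = 8) in Pbrm1-fl tumors (difference 0.97, exact permutation p = 0.101). The lowest p of the 24 tests was 0.0567 by exact permutation, for Pfkp over Pfkl with Arid1a-fl, where all 8 tumors were below the control median (difference -0.69 on the log2 scale). After adjustment over the 24 tests no ratio had a p under 0.512 by the exact permutation test.

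Among secreted and surface targets, Vegfa and Adm, which encode an angiogenic factor and a vasodilator peptide, were called in no comparison. Vegfa had a median of 153 CPM in hSS2 controls and 185 CPM in Pbrm1-fl tumors, with 7 of 8 above the control median (log2 fold change 0.36 ± 0.18, edgeR adjusted p 0.22). Car9 had a lowest, median and highest value of 0.243, 2.80 and 5.90 CPM in hSS2 controls and 0.490, 0.737 and 1.95 CPM in Pbrm1-fl tumors. All 8 were below the control median and within the control range, at -1.54 ± 0.59 (edgeR adjusted p 0.104, not called). DESeq2 called Car9 in this comparison, as did edgeR with only the 2 groups in the fit. Those settings called 2282 of 25980 and 1009 of 19163 genes. In hSS1, Car9 was at 0.665, 0.724 and 0.899 CPM in 3 Pbrm1-fl tumors, below all 5 controls (1.44 to 3.69 CPM), and at 42.8 CPM in replicate 3. That tumor set the sign: the log2 fold change was 2.06 with it and -1.79 without it (edgeR adjusted p 0.143). Without it the median log2 fold change of the 42 members in hSS1 was -0.66 in place of -0.13, with 8 in place of 17 above 0. Replicate 3 was also the hSS1 Pbrm1-fl tumor with the lowest Pbrm1. With this tumor in the fit, DESeq2 called the difference between backgrounds in the Pbrm1-fl effect on Car9, and edgeR did not.

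The mitochondrial and mitophagy targets Bnip3, Bnip3l and Higd1a were not called. The largest of their changes was Bnip3l for Arid1b-fl at 0.68 ± 0.21 (edgeR adjusted p 0.528), and it rested on replicate 5. Bnip3l was at 431 CPM in that tumor and at 77.6 to 101 CPM in the other 7, and without it the log2 fold change was 0.11. Replicate 5 also held the highest Arid1b-fl value of Car9 (27.8 CPM beside 1.10 to 7.89 CPM), Egln3 (109 CPM beside 8.42 to 14.9 CPM) and Slc2a1. Without this tumor the median log2 fold change of the members for Arid1b-fl was 0.03 in place of 0.33, and 22 in place of 32 of 42 were above 0. Its summed level of 6 erythroid markers, mainly globins, was 47848 CPM beside at most 3924 CPM in any other tumor. All 6 markers had an unadjusted p under 0.05 for Arid1b-fl, none was called, and the part of red cell RNA in these values was not tested.

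Collagen-modifying targets held 2 of the called members, Plod1 and P4ha2. Plod1, a lysyl hydroxylase of the endoplasmic reticulum, had a lowest, median and highest value of 45.6, 91.8 and 252 CPM in hSS2 controls and of 128, 210 and 351 CPM in Arid1a-fl tumors. All 8 were above the control median, and the log2 fold change was 1.01 ± 0.22 (edgeR adjusted p 0.0156). It was 0.99 (adjusted p 0.0409) against controls of the same range and 0.87 (adjusted p 0.0716) without Arid1a-fl replicate 8, the tumor at 351 CPM. Among the 18 tumors poor in skeletal muscle it was 0.65 (adjusted p 0.517), where 0 of 19976 genes were called by edgeR, 2268 of them at an unadjusted p under 0.05. In Pbrm1-fl tumors the median of Plod1 was 86.3 CPM, near that of controls. Proliferation markers were also higher in the Arid1a-fl tumors (median log2 fold change 0.92, 9 of 12 at an unadjusted p under 0.05, none called) and adipocyte markers lower (median -2.99, 3 of 5), and their part in the Plod1, Hk1 and Pgam1 values was not tested.

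P4ha2, a subunit of the collagen prolyl hydroxylase, was the only member whose Pbrm1-fl effect was called different between backgrounds. In hSS2 its lowest, median and highest values were 3.17, 17.2 and 34 CPM in controls and 3.37, 6.10 and 12.2 CPM in Pbrm1-fl tumors, all 8 below the control median (log2 fold change -1.23 ± 0.40, edgeR adjusted p 0.0534). In hSS1 the controls were at 5.23, 19.8, 7.37, 7.65 and 12.1 CPM and the Pbrm1-fl tumors at 38.4, 17.4, 64.8 and 5.93 CPM (log2 fold change 1.6 ± 0.64, edgeR adjusted p 0.254). Neither effect was called alone by edgeR, and DESeq2 called the hSS2 effect (adjusted p 0.0194). The difference, hSS1 minus hSS2, was 2.83 ± 0.73 on the log2 scale (edgeR adjusted p 0.0269), in a test that called 2.86% of all genes in either direction and 1.7% higher. The call was lost without hSS1 Pbrm1-fl replicate 1 or 3 or hSS1 control replicate 1 or 3 (over the 9 fits that each left out 1 hSS1 tumor, 2.22 to 3.21, edgeR adjusted p 0.0121 to 0.081). It was also lost against controls of the same range (2.84, adjusted p 0.179). P4ha1, Plod2 and Lox were called in no comparison.

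The other intracellular targets, Ndrg1, Ankrd37, Ddit4, Mxi1 and Kdm3a, were called in none of the 6 comparisons. Ddit4, which restrains mTORC1 signaling under stress, had a lowest, median and highest value of 14.9, 30.5 and 362 CPM in hSS2 controls, of 23.9, 33.8 and 66.4 CPM in Arid1a-fl and of 14.7, 36.8 and 84.6 CPM in Arid1b-fl tumors. The floxed medians were above the control median while the log2 fold changes, which follow the means, were -0.92 ± 0.55 for Arid1a-fl and -0.96 ± 0.55 for Arid1b-fl (edgeR adjusted p 0.31 and 0.804). Against controls of the same range Ddit4 was called lower for Arid1a-fl (-1.88, edgeR adjusted p 0.04) and was at 0.62 for Arid1b-fl. Kdm3a, a histone demethylase, was at 198, 301, 226, 120 and 121 CPM in hSS1 controls and at 116, 116, 136 and 93.9 CPM in hSS1 Pbrm1-fl tumors (log2 fold change -0.74 ± 0.29, edgeR adjusted p 0.242, not called).

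The direct comparison of Pbrm1-fl with Arid1a-fl tumors in hSS2 called 5 of 42 members, in a test that called 12.3% of all genes, 6.79% higher and 5.5% lower in Pbrm1-fl. Epas1 (0.84 ± 0.21, edgeR adjusted p 0.00646), Pfkfb4 (0.84 ± 0.21, adjusted p 0.00664) and Aldoc (1.56 ± 0.41, adjusted p 0.0102) were higher in Pbrm1-fl tumors. Plod1 (-1.18 ± 0.25, edgeR adjusted p 0.00179) and Hif1a (-0.32 ± 0.10, adjusted p 0.0263) were lower. Pfkfb4, which makes the activator of phosphofructokinase, was at 12.7 to 29.7 CPM in Pbrm1-fl and 9.02 to 16.6 CPM in Arid1a-fl tumors. Aldoc, an aldolase best known from brain, was at 17.2 to 83.4 CPM and 4.66 to 24.1 CPM. Plod1 was at 70.1 to 118 CPM and 128 to 351 CPM. The Pbrm1-fl mice all carried the highest range of mouse numbers and the Arid1a-fl mice all the lowest, so genotype and range cannot be told apart here. When each group was set against controls of its own range first, none of the 5 was called. Plod1 was then at -1.19, Pfkfb4 at 0.75 and Epas1 at 0.60, while Aldoc was at 0.36 and Hif1a at -0.07. The Hif1a call was also lost without Arid1a-fl replicate 4 (-0.30, edgeR adjusted p 0.0531).

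Skeletal muscle markers divided the hSS2 tumors into 18 with a score of -1.09 to 3.97 and 19 with a score of 6.31 to 10.8, the score being the mean log2 CPM of 15 markers. None of the 15 is a member. They include Pygm, a glycogen enzyme, and Eno3 and Pgam2, which are also in the list of further glycolysis genes used below. The 19 tumors were 8 controls, 3 Pbrm1-fl, 4 Arid1a-fl and 4 Arid1b-fl. Within them, group-centered levels of several members followed the score closely. Over these 19 tumors the correlation was r = 0.98 for Ldha (Spearman's rho 0.98), 0.97 for Aldoa (rho 0.98), 0.95 for Slc16a3 (rho 0.93) and 0.95 for Hk2 (rho 0.94), each with a permutation p of 1e-05 for r, the smallest the permutations can give (adjusted p 0.000418 over 167 relations). Spearman's permutation p was 1e-05 for Ldha, Aldoa and Slc16a3 and 3e-05 for Hk2. Without the 2 tumors farthest from the median score r was 0.97, 0.96, 0.92 and 0.93. In all, 13 of 42 members passed the adjusted permutation test on r in these tumors, Gapdh and Pgk1 among them, and 9 passed it on rho. The median r over the members was 0.48, and over all 20083 genes it was 0.01. Within the 18 muscle-poor tumors none passed, and r was 0.12 for Hk2 (rho 0.16, permutation p 0.626 and 0.517) and 0.04 for Ldha (rho -0.0031, permutation p 0.876 and 0.994). No list of muscle markers was called between genotypes, but their median log2 fold change was -0.88 for Pbrm1-fl, -1.48 for Arid1a-fl and 0.34 for Arid1b-fl in hSS2. Except where muscle-poor tumors are named, the values above are over all tumors of a group, whatever their muscle score.

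**Figure D3:**
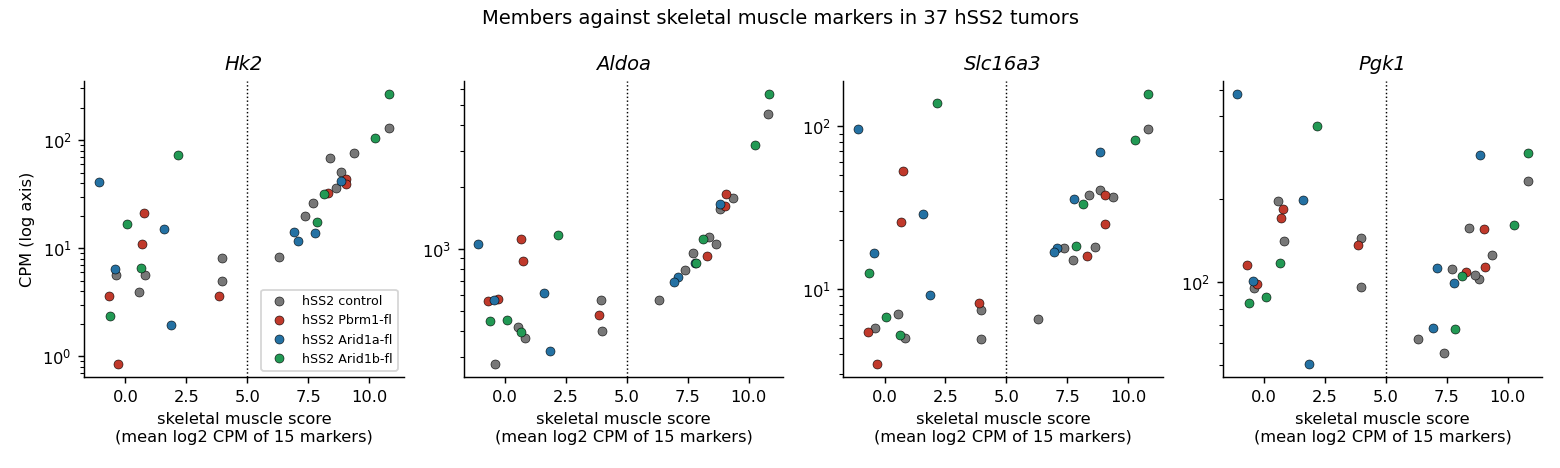
Level of Hk2, Aldoa, Slc16a3 and Pgk1 in CPM on a log axis against the skeletal muscle score (mean log2 CPM of 15 markers), with 1 point per hSS2 tumor, colored by group, and a dotted line at a score of 5. To the right of the line the 19 muscle-rich tumors rise together with the score in each panel, and to the left the 18 muscle-poor tumors do not.

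Car9 was used as a reference for co-variation across tumors, since its transcription depends strongly on HIF. Over the 37 hSS2 tumors, with group means removed, 39 of the other 41 members had a positive r with Car9 (95.1%, beside 51.3% of all genes), and the median r was 0.30 beside 0.01 over all genes. The members passing the adjusted permutation test were Pgk1 (r = 0.58, permutation p 0.00076, adjusted 0.0159, rho 0.58, permutation p 0.00078), Slc2a1 (r = 0.57, permutation p 0.00149, adjusted 0.0214, rho 0.52, permutation p 0.00179) and Egln3 (r = 0.52, permutation p 0.00179, adjusted 0.0214, rho 0.49, permutation p 0.0027). Pfkl (r = 0.50, permutation p 0.00361, adjusted 0.0355, rho 0.52, permutation p 0.00228) and Pfkfb3 (r = 0.47, permutation p 0.00544, adjusted 0.0445, rho 0.50, permutation p 0.00279) also passed. Leaving out the 2 tumors farthest in Car9, Arid1b-fl replicate 5 and control replicate 4, gave r of 0.59, 0.43, 0.43, 0.43 and 0.54 in the same order. The promoter windows of Car9, Pgk1, Slc2a1 and Egln3 printed above each hold 1 or 2 copies of the core letters. That of Pfkl holds 1, and those of Pfkfb3 hold 3 and 1. The letters do not set these genes apart, since 35 of the 37 members with a promoter hold them.

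**Figure D4:**
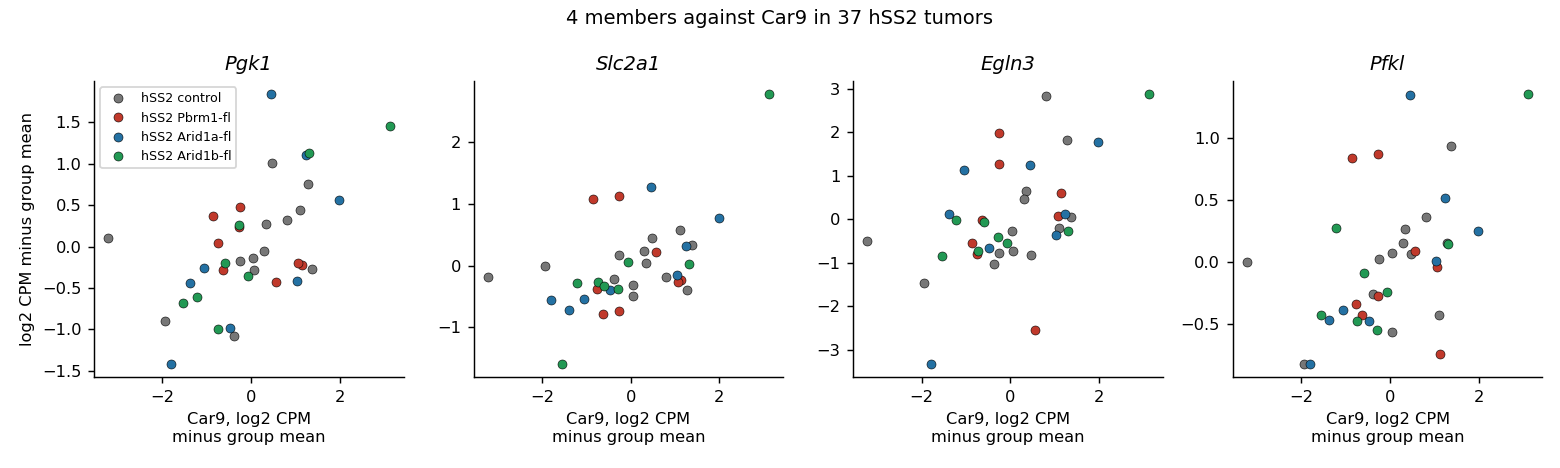
Log2 CPM of Pgk1, Slc2a1, Egln3 and Pfkl against that of Car9, each minus its group mean, with 1 point per tumor for the 37 hSS2 tumors, colored by group. The points rise from left to right in each panel with wide scatter (r of 0.58, 0.57, 0.52 and 0.50), and the point farthest to the right is Arid1b-fl replicate 5.

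Endothelial markers, a list of 10 genes, were compared with the members in the same way. Epas1, which endothelial cells express strongly, had the highest positive r, at 0.50 over 37 tumors (permutation p 0.00178, adjusted 0.0214, rho 0.47, permutation p 0.00325, and 0.44 without the 2 farthest tumors). Without those 2 tumors Egln3 was above Epas1, at 0.48 (0.41 over 37 tumors). Ldha (r = -0.50, permutation p 0.00266, adjusted 0.0278, rho -0.49, permutation p 0.00398) and Aldoa (r = -0.49, permutation p 0.00543, adjusted 0.0445, rho -0.51, permutation p 0.00281) were negative. Without the 2 farthest tumors these were -0.54 and -0.48. Ldha and Aldoa also followed the skeletal muscle score in the 19 muscle-rich tumors (r = 0.98 and 0.97). The part of muscle in their endothelial values was not tested. The endothelial list had no gene called in any comparison, and its median log2 fold change was 0.03 for Pbrm1-fl and -0.03 for Arid1a-fl in hSS2.

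Other genes of the same pathways, taken from 2 longer lists, were called in small numbers. Over all genes, 7.35% were called for Pbrm1-fl in hSS2 and 3.17% for Arid1a-fl. Of 31 further glycolysis and glucose genes tested in hSS2 (29 in hSS1), none rose for Pbrm1-fl in hSS2. Slc2a3, which encodes the glucose transporter GLUT3, was at 9.43 to 43.7 CPM in controls and 0.753 to 10.2 CPM in Pbrm1-fl tumors (log2 fold change -2.41 ± 0.55, edgeR adjusted p 0.00564), and it was called lower under each of 7 other settings (edgeR or DESeq2 adjusted p up to 0.0139). Of 45 further hypoxia targets tested, Errfi1 (-2.0 ± 0.46, edgeR adjusted p 0.00599) and Selenbp1 (-2.18 ± 0.60, adjusted p 0.0218) fell and Pgf, a relative of Vegfa, rose (1.96 ± 0.56, adjusted p 0.0253). Without Pbrm1-fl replicate 3, Pgf was at 1.09 (edgeR adjusted p 0.234), and against controls of the same range neither Errfi1 (-1.30, adjusted p 0.155) nor Pgf (1.76, adjusted p 0.34) was called. In muscle-poor tumors Errfi1 was at -0.63 (edgeR adjusted p 0.44) and Pgf at 2.05 (adjusted p 0.231). For Arid1a-fl, none of the 31 glycolysis genes was called. Of the 45 targets Car12, a second surface carbonic anhydrase, rose from a control median of 0.601 CPM to 3.44 CPM (log2 fold change 4.03 ± 0.57, edgeR adjusted p 0.000175). Its highest Arid1a-fl tumor was at 62.8 CPM. Without Arid1a-fl replicate 8 the Car12 log2 fold change was 2.72 (edgeR adjusted p 0.00281), and in muscle-poor tumors it was 1.23 (adjusted p 0.481). Errfi1 and Bhlhe41 fell by 1.73 and 1.34 (edgeR adjusted p 0.0373 and 0.0442). With 1 tumor left out at a time, their highest adjusted p was 0.0995 and 0.115. No gene of either list was called for Arid1b-fl or for Pbrm1-fl in hSS1 by edgeR. At an unadjusted p under 0.05 there were 5 of 31 and 5 of 45 genes for Arid1b-fl, beside 6.22% of all genes. For Pbrm1-fl in hSS1 there were 3 of 29 and 9 of 45, beside 17.2% of all genes.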

How the data were processed

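RNA was taken from frozen tumors, depleted of ribosomal RNA and made into stranded libraries, per the labels. Per the submitters' processing notes, the authors used STAR 2.7.11 and featureCounts 1.6.3 on mouse build mm10 (GRCm38), and the deposited values are read counts per gene, not normalized, in 1 table per background. How reads matching several places were treated is not given in the sources used here. Groups came from the genotype labels, replicate numbers were given in accession order, and the labels do not pair tumors. Each library was taken as 1 tumor, and the p-values measure the spread between these libraries. Of the genes, 91.5% (hSS2) and 91.3% (hSS1) had a symbol.

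Counts were filtered with filterByExpr, scaled by TMM and tested with edgeR 4.0.16 (two-sided quasi-likelihood F-test, R 4.3.3) over all genes, with Benjamini-Hochberg adjustment and a threshold of 0.05. The 4 hSS2 groups shared 1 fit, hSS1 had its own, and the interaction used both. CPM are TMM-scaled, and RPKM divides them by the merged length of all annotated exons of the gene. Correlations used log2 CPM (prior count 2) minus group means and 100000 permutations within groups (Python 3.11.15, scipy 1.17.1). Alternatives were DESeq2 1.42.0, other size factors, no count filter, 2 groups only, muscle score as a covariate, controls of the same mouse number range, and each tumor left out. The tests were checked on simulated data. Every member called in any comparison was described, with the 2 members of smallest p in each direction per comparison and 9 core genes. Among 2 further lists, up to 3 called genes per direction were named. A result from these lists is not reported here. The members, gene lists and tests were chosen with earlier results of these data known.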

Additional observations from a re-analysis of the deposited data

Results flagged for a closer look

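Single tumors stood apart from the rest of their group for 5 of the members described, out of 95 combinations of gene and group of 4 to 10 tumors examined. Chance alone puts about 1 in 20 such groups on this list. In hSS2 Arid1b-fl replicate 5 Bnip3l was at 431 CPM (77.6 to 101 CPM in the other 7), Egln3 at 109 CPM (8.42 to 14.9 CPM) and Slc2a1 at 197 CPM (9.52 to 29.8 CPM). In hSS1 Pbrm1-fl replicate 3 Car9 was at 42.8 CPM, beside 0.665 to 0.899 CPM in the other 3 tumors. In hSS1 control replicate 4 Pgam1 was low at 53.7 CPM, beside 77.2 to 85.4 CPM. The Pbrm1-fl effect on P4ha2 differed between backgrounds by 2.83 on the log2 scale (edgeR interaction, adjusted p 0.0269).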

How the results depend on the processing

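Of 974 values for single genes under other settings, 822 kept their direction and their side of the threshold, 136 kept the direction but lost the call, 14 gained a call and 2 reversed. The reversed values were Ddit4 for Arid1b-fl, at 0.62 against controls of the same range and 0.36 in muscle-poor tumors. The number of members called for Pbrm1-fl in hSS2 was 1, and it was 4 with DESeq2, 3 with only the 2 groups in the fit, 2 with muscle score as a covariate, and 0 both against controls of the same range and in muscle-poor tumors. For Arid1a-fl it was 3, and it was 4 with DESeq2, 4 against controls of the same range, 1 with the muscle covariate, 1 without a count filter, 1 with only 2 groups and 0 in muscle-poor tumors. DESeq2 called 3 members for Pbrm1-fl in hSS1, where edgeR called 0, and 3 for the interaction, where edgeR called 1. Over all genes DESeq2 called 1244 of 19851 in hSS1 and 1160 of 23918 for the interaction. In hSS2 it called 2282 of 25980 genes for Pbrm1-fl and 1740 of 22896 for Arid1a-fl. The interaction and the comparison of Pbrm1-fl with Arid1a-fl had 0 members called against controls of the same range and 0 in muscle-poor tumors. Leaving out each tumor in turn gave 1 to 2 members for Pbrm1-fl in hSS2, 0 to 4 for Arid1a-fl (0 without replicate 8), 0 to 0 for Arid1b-fl and for hSS1, 0 to 2 for the interaction, and 4 to 6 for Pbrm1-fl against Arid1a-fl. Without the 2 farthest tumors, 2 members in place of 5 passed with Car9, 1 in place of 3 with endothelial markers and 7 in place of 13 with muscle markers in muscle-rich tumors. The setting with muscle-poor tumors was chosen after seeing the data, and the cause of these shifts was not tested. No paired analysis was possible because the labels give no replicate numbers shared between groups. With 4 to 13 tumors a group, few reads for Car9 and a wide spread of several members between tumors, small changes could go uncalled.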

Other observations

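Among the further pathway genes, 2 of 45 hypoxia targets differed between backgrounds in the Pbrm1-fl effect, hSS1 minus hSS2, in a test that called 2.86% of all genes. These were Pgf (-4.60 ± 1.07 on the log2 scale, edgeR adjusted p 0.0157) and Rimklb (-5.66 ± 1.44, adjusted p 0.0246). Neither was called against controls of the same range (Pgf at -4.48, edgeR adjusted p 0.129, and Rimklb at -5.00, adjusted p 0.185) or without hSS1 Pbrm1-fl replicate 1 (0.0515 for Pgf), and Rimklb was not called without hSS1 control replicate 3 (-4.42, 0.0822). Pgf had a median of 2.26 CPM in hSS2 controls and 6.18 CPM in hSS2 Pbrm1-fl tumors, and of 10.7 and 1.46 CPM in the hSS1 groups. The test of Pbrm1-fl against Arid1a-fl tumors called 12.3% of all genes. In it the glucose genes Slc2a3 (-2.97) and Pgm2 (-0.36) were lower in Pbrm1-fl, as were the hypoxia targets Car12 (-5.83), Selenbp1 (-2.62) and P4hb (-0.55). Stc2 (0.83) was higher (edgeR adjusted p of these genes from 7.26e-06 to 0.0486). Of the 16 fits that left out a single tumor, Stc2 was called in 3 (adjusted p up to 0.102) and Pgm2 in 13 (up to 0.0619). Of 6 other settings, Stc2 was called in 2 and Pgm2 and P4hb in 4 each, with log2 fold changes of 0.60 to 0.83, -0.49 to -0.36 and -0.58 to -0.48.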
